A study of Homo sapiens with 12 samples.

Results

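The reads described here lie antisense to L1 elements. They come from RNA pulled down after UV crosslinking with tagged forms of ZC3H18 (Z18) or with a control protein. The counts hold all reads assigned to an element, with no selection for crosslinked sites. Members were taken by 2 criteria: the annotated element belongs to the L1 family, and the strand that the reads came from is opposite to the strand of the element. This gave 352019 element entries out of 3007068 entries of element and read orientation in the 6 transposable element classes of the series, and 349418 further entries held reads in the sense orientation of L1. The antisense members belonged to 132 subfamilies.

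L1 (LINE-1) is the retrotransposon family that still moves in the human genome, and most of its copies are old, truncated fragments in introns and between genes. The coding strand of L1 is rich in adenosine, so RNA from the opposite strand is rich in uridine. Antisense L1 RNA mostly arises where a host gene, a long noncoding RNA or another unit is transcribed through an inverted copy, and some arises from an antisense promoter near the 5′ end of full-length copies. Z18 is a nuclear zinc finger protein that links the cap-binding complex to the NEXT and PAXT RNA surveillance complexes, which deliver unneeded nuclear RNA to the exosome.

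The 12 libraries came from A375, a human melanoma cell line, transiently transfected with 1 of 4 V5-tagged constructs in pcDNA3.2, with 3 libraries each. Clover, a green fluorescent protein, was the control. Z18fl was full-length Z18, Z18trunc was a truncated Z18 that lacks its C-terminal end, and Z18truncZnFmut was the truncated protein with aromatic residues of its zinc finger mutated. In PAR-CLIP, cells take up 4-thiouridine (4sU) and UV light crosslinks it to bound protein, so a uridine in the RNA is needed for a crosslink; here labelling began 24 h after transfection, the bait was pulled down with anti-V5, and ribosomal RNA was depleted before stranded library preparation. All groups express a tagged protein from a plasmid in 1 cell line whose own Z18 gene was not altered by the constructs, and no source says that the libraries of a group came from separate cultures, so p-values measure the spread between these libraries only.

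The sequences of 4 members are shown as examples, 1 that rose with Z18fl and 3 that fell, chosen among the named loci described further on; each held only a small part of the antisense L1 counts. They are read from the hg38 genome on the strand of the reads, 5′ to 3′, with every T (a U in the RNA, the base that 4sU replaces) in capitals.
L1MB8 in the SQSTM1 intron, chr5:179822014-179822313, read strand +, central 300 of its 393 bases: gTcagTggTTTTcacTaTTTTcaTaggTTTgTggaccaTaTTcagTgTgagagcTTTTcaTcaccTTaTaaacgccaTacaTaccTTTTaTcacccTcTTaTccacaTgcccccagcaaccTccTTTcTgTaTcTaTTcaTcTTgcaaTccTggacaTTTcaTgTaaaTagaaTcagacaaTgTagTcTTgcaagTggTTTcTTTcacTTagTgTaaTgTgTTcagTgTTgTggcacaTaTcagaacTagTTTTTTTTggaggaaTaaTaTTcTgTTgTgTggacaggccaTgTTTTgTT
L1ME2 in the CAPN15 intron, chr16:541593-541820, read strand +, whole element: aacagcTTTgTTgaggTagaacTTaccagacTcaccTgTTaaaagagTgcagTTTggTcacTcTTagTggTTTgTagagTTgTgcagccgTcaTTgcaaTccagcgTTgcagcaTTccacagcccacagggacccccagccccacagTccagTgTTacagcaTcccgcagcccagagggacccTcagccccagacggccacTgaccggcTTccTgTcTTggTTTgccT
L1M2a between genes, chr19:57302250-57302549, read strand +, central 300 of its 2347 bases: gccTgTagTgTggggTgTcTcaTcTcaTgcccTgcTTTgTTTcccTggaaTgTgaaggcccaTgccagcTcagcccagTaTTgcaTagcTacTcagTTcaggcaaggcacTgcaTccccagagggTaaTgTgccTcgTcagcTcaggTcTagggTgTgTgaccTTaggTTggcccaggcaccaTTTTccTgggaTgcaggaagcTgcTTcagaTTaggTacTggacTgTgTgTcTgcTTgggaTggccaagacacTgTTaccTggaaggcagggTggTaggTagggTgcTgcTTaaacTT
L1MB7 in the IDH3G intron, chrX:153786503-153786754, read strand -, whole element: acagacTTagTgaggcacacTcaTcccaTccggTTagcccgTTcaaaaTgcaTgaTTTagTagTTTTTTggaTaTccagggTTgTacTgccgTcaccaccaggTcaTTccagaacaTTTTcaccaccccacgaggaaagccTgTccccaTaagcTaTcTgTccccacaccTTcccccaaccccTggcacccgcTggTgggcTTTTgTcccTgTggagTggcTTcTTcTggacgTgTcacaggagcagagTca
In these stretches T makes up 38.0% of the L1MB8 sequence, 23.2% of L1ME2, 27.0% of L1M2a and 25.4% of L1MB7. Named loci in exons and the abundant L1PA3 copy in IARS1 are not shown, and U content by direction of change was not tested. Over all members the count-weighted U content differed by 0.0731 percentage points between Z18fl and Clover.

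The libraries held from 16683132 to 25686948 aligned fragments. Between 21973 and 78215 antisense L1 elements carried counts in 11 of the libraries, and 235846 did in Z18truncZnFmut replicate 3. That library and, less so, Z18trunc replicate 3 stand apart in most values below, so results that rest on them are also given without them. Most members were thinly covered: 329212 of them (93.5%) had under 10 counts over all 12 libraries, 226356 (64.3%) appeared in 1 library only, 148996 (42.3%) appeared in Z18truncZnFmut replicate 3 only, and 2175 (0.618%) had counts in every library. As a check of the strand labels, 92.5% to 96.4% of element counts in exons of protein-coding genes lay on the strand of the gene.

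Antisense L1 reads were a little more abundant with Z18 than with Clover, while the excess of sense L1 reads was larger, so the antisense share of L1 reads was lower. The Clover libraries held 4108, 3616 and 3288 antisense L1 CPM (counts per 1000000 aligned fragments), and the Z18fl libraries held 4529, 4612 and 4628. The Z18trunc libraries held 4266, 4721 and 6708, and the Z18truncZnFmut libraries held 4014, 4867 and 19916. Every Z18fl and Z18trunc library was above every Clover library, and the last Z18truncZnFmut library was several times above all others. Group means were 3671 ± 413 (SD, n = 3) for Clover, 4590 ± 52.8 for Z18fl, 5232 ± 1299 for Z18trunc and 9599 ± 8945 for Z18truncZnFmut. Sense L1 reads ran from 7077 to 8315 CPM in Clover, 13273 to 16967 in Z18fl, 17165 to 18316 with Z18trunc and 13232 to 28826 with Z18truncZnFmut.

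The antisense share of all L1 counts was 33.1%, 33.8% and 31.0% in the Clover libraries and 24.6%, 25.8% and 21.4% in the Z18fl libraries. It was 19.3%, 20.5% and 28.1% in the Z18trunc libraries and 21.5%, 26.9% and 40.9% in the Z18truncZnFmut libraries. Z18fl and Z18trunc did not overlap with Clover, and Z18truncZnFmut spanned it. The 95% Wilson intervals, which cover counting error only since PCR copies are not separate molecules, reached at most 0.217 percentage points to each side. The mean difference from Clover was −8.69 percentage points for Z18fl and −9.97 for Z18trunc, and each had p = 0.1 (two-sided exact permutation test, n = 3 against 3), the smallest p this design allows. Adjusted by Benjamini-Hochberg over 45 such tests, both exact permutation p-values became 0.321. The Z18truncZnFmut difference of −2.87 points had an exact permutation p of 0.7 and was −8.42 points without its replicate 3. The share counted from uniquely mapping reads alone kept the same order, with 34.4%, 35.1% and 32.5% for Clover and 25.3%, 26.5% and 22.3% for Z18fl.

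**Figure D1:**
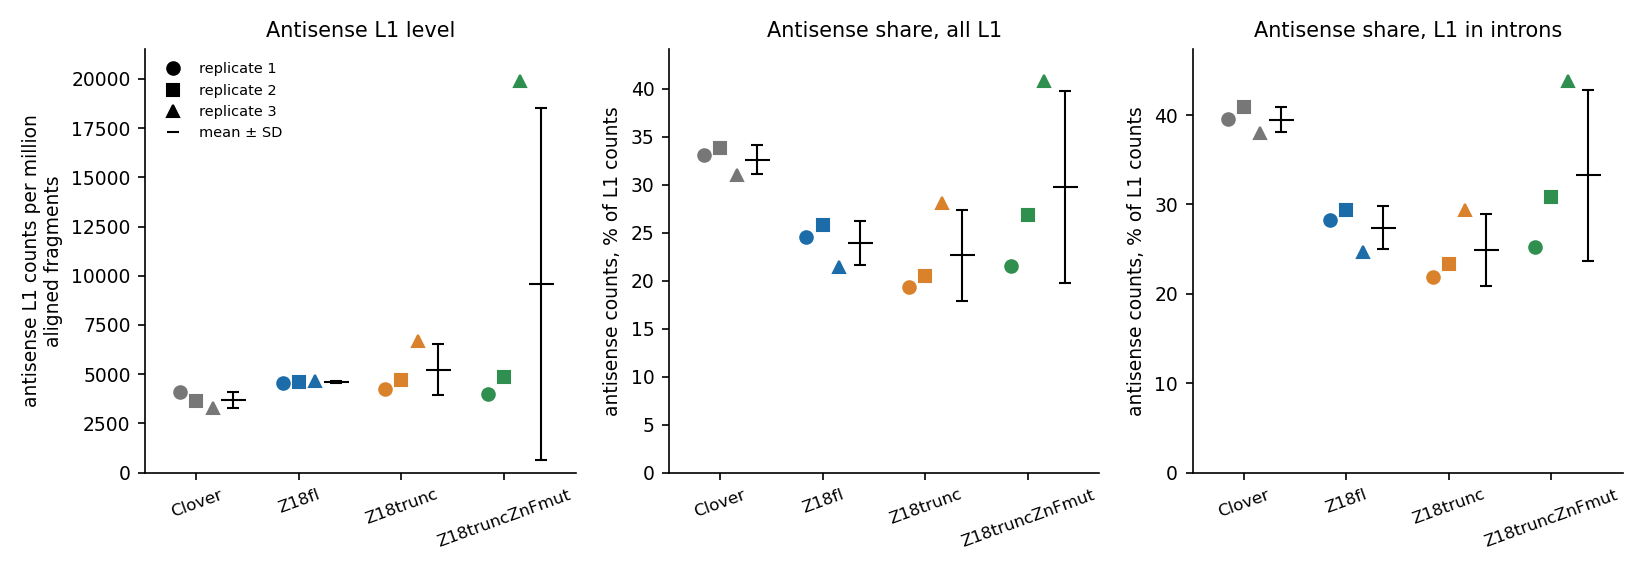
Antisense L1 CPM (left), antisense percent of all L1 counts (middle) and of L1 counts in introns (right) in each of the 12 libraries (points), with the mean and SD of each construct (bars). Clover, at 3288 to 4108 CPM and 31.0% to 33.8% antisense, lies below Z18fl and Z18trunc for the counts and above both for the share, while Z18truncZnFmut replicate 3 is far above all others at 19916.

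Each element was placed by the gene annotation on the strand of its reads. It counted as exon where exons covered most of it, and otherwise its midpoint decided. All reads of an element took its label. Introns held most antisense L1 counts, with 58.9%, 60.05% and 62.0% in Clover and 69.1%, 67.2% and 68.8% in Z18fl. Antisense L1 reads in introns went from 2418, 2172 and 2040 CPM in Clover to 3130, 3097 and 3184 in Z18fl. The corresponding sense reads in introns went from 3701, 3141 and 3322 CPM to 7951, 7459 and 9717. Within introns the antisense share went from 39.5%, 40.9% and 38.0% in Clover to 28.2%, 29.3% and 24.7% in Z18fl, a mean difference of −12.1 percentage points. Antisense reads in exons differed little, with 502, 470 and 496 CPM in Clover and 513, 526 and 524 in Z18fl. Reads between genes showed no such rise in Z18fl, with 936, 763 and 609 CPM in Clover and 732, 802 and 759 in Z18fl. The share of antisense counts in introns was 8.03 percentage points higher in Z18fl than in Clover, and those in exons and between genes differed by −2.09 and −4.16 points. All 3 differences separated the groups completely, with p = 0.1 (exact permutation test, n = 3 against 3).

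The libraries that stand apart did so most, relative to the others, between genes and opposite to genes, and less in introns. Antisense L1 reads between genes reached 1867 CPM in Z18trunc replicate 3 and 8177 in Z18truncZnFmut replicate 3, against 609 to 1023 in the other 10. Antisense L1 reads on the strand opposite to an annotated gene reached 598 and 2971 CPM in these libraries, against 143 to 287 elsewhere. In introns they held 3749 and 8209 CPM, against 2040 to 3184. In exons the same libraries held 494 and 558 CPM, within or close to the range of the other 10. The antisense share within exons was 31.7% and 34.2% there, against 29.96% to 34.7% in the other libraries. The part of these reads in the differences between constructs was not tested beyond leaving the libraries out.

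Antisense reads came from older copies than sense reads. RepeatMasker gives each element a milliDiv, its rate of base mismatches from the subfamily consensus (per kilobase), which grows with age. The count-weighted mean milliDiv of antisense L1 reads was 181.6, 181.1 and 183.2 in Clover and 187.5, 187.5 and 186.4 in Z18fl. It was 183.1, 182.8 and 181.0 in Z18trunc and 183.0, 179.3 and 177.8 in Z18truncZnFmut, while sense L1 reads had 132.5 to 154.5. The Z18fl libraries lay above the Clover libraries by 5.18 and above the Z18trunc libraries by 4.83, each with an exact permutation p of 0.1 (n = 3 against 3). Elements with a milliDiv of 200 to 249 held 19.0% to 21.05% of antisense counts in each library, and those below 50 held 8.18% to 10.8%.

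The antisense share was lower with Z18fl than with Clover at every age, and with Z18trunc too except for its replicate 3 from a milliDiv of 50 to 99, at 18.2% against 17.7% in the lowest Clover library. Among the youngest copies, below a milliDiv of 50, it was 22.1%, 23.5% and 19.7% in Clover, 13.6%, 14.2% and 11.5% in Z18fl, and 10.7%, 11.4% and 17.2% in Z18trunc. From 100 to 149 it was 32.7%, 33.6% and 30.9% in Clover and 21.3%, 23.2% and 17.8% in Z18fl. In the same elements the sense reads went from 1084, 903 and 944 CPM to 2110, 1956 and 2726. From 250 to below 300 it was 42.9%, 44.2% and 42.1% in Clover and 35.6%, 36.3% and 34.1% in Z18fl. At 300 and above it was 38.5%, 38.1% and 37.6% in Clover and 33.2%, 33.8% and 31.4% in Z18fl. In none of these bins did a Z18fl library reach the lowest Clover library. The youngest copies gave 411, 391 and 333 antisense CPM in Clover and 378, 377 and 400 in Z18fl, which overlapped. Copies from 250 to below 300 gave 755, 675 and 621 in Clover and 879, 889 and 892 in Z18fl, which did not. These bins were described and not tested.

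**Figure D2:**
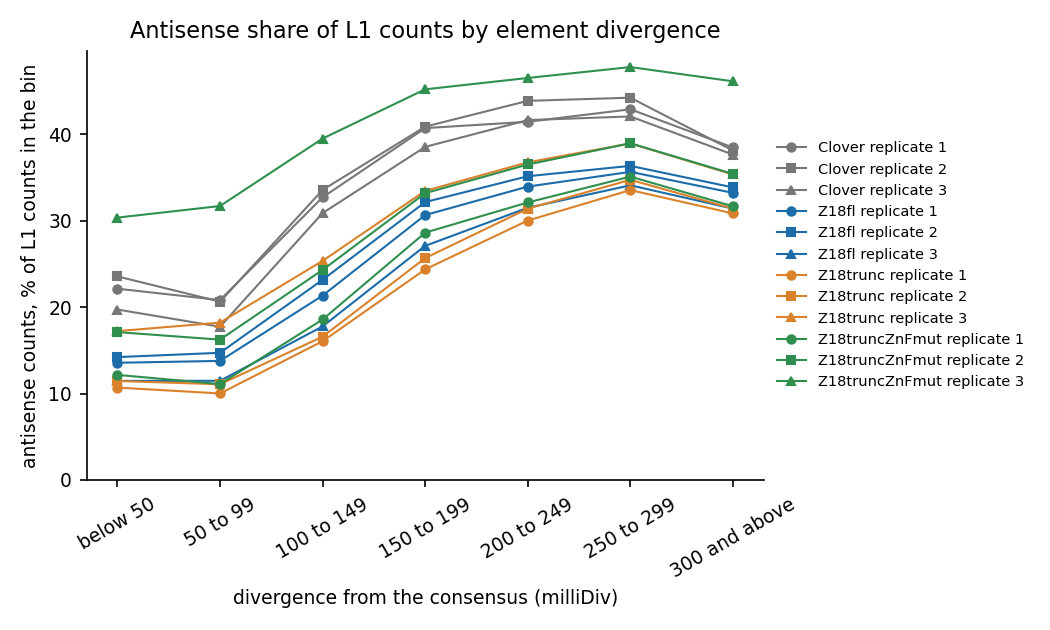
Antisense percent of L1 counts by milliDiv of the element (mismatches per kilobase), 1 line per library, colored by construct. Clover lies above Z18fl in every bin, from 19.7% to 23.5% against 11.5% to 14.2% below 50, and from 37.6% to 38.5% against 31.4% to 33.8% at 300 and above.

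The antisense strand was U-rich in all constructs. Weighted by counts, the antisense strand of the elements held 37.1% to 37.6% U in 10 of the libraries, 38.5% in Z18trunc replicate 3 and 39.7% in Z18truncZnFmut replicate 3, and 23.05% to 23.9% A. The sense strand of elements with sense reads held 37.9% to 39.5% A and 21.6% to 22.9% U. The count-weighted U content of the antisense strand differed by 0.0731 percentage points between Z18fl and Clover (exact permutation test, p = 0.9, n = 3 against 3). It was computed over whole elements and not over the bases of the reads.

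For comparison, the same share was computed for other families. The antisense share of Alu reads was 34.1% to 35.0% in Clover and 35.7% to 36.7% in Z18fl. For L2, an older LINE family, it was 58.3% to 59.6% in Clover and 62.5% to 65.1% in Z18fl. For elements of the LTR class it was 43.4% to 44.7% in Clover and 45.5% to 46.2% in Z18fl. The antisense share of these families was thus not lower in Z18fl, in contrast to that of L1. The L1 part of all antisense element counts was 13.2% to 14.9% in 10 libraries, 17.8% in Z18trunc replicate 3 and 27.4% in Z18truncZnFmut replicate 3, and it differed by 0.0431 percentage points between Z18fl and Clover (exact permutation test, p = 1.0, n = 3 against 3).

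Whether antisense and sense reads of a subfamily changed differently was tested within libraries, by an interaction of orientation and construct in edgeR, so that scaling between libraries plays no part. With Z18fl, 85 of the 131 L1 subfamilies tested had a lower antisense to sense ratio than with Clover and 0 a higher one (3 higher at an unadjusted p under 0.05), where 20.2% of all subfamilies tested were lower and 12% higher. The median log2 change of the ratio was −0.60 over these L1 subfamilies and −0.04 over all subfamilies tested. All 6 of the youngest group (L1HS and L1PA2 to L1PA6), all 12 of L1PA7 to L1PA17, all 12 of L1MA and all 7 of L1MB were lower. In L1ME it was 11 of 27 subfamilies, in L1MC 5 of 11, in L1MD 2 of 6 and in HAL1 2 of 4. In the group of L1M1 to L1M8 and other L1M it was 17 of 25, at the lowest median of any group (−0.92). In the group of L1PB, L1P1 to L1P5 and other L1P it was 11 of 20, at a median of −0.80. In L1PA4 the ratio changed by −1.26 ± 0.10 (log2, SE, adjusted p = 1.94e-06 in edgeR). Relative to other elements, which does depend on scaling between libraries, its sense reads rose by 0.82 and its antisense reads fell by 0.45 (log2). Per aligned fragment its antisense reads overlapped, with 126, 116 and 94.2 CPM in Clover and 109, 109 and 114 in Z18fl. In L1HS, the only subfamily known to be mobile today, the ratio changed by −0.48 ± 0.10 (edgeR adjusted p = 0.00214). The same test called 1 of 49 Alu subfamilies, 0 of 6 L2 and 69 of 543 LTR subfamilies lower, with medians of 0.03, 0.34 and 0.10. Without any 1 library the L1 count was 70 to 87, and within introns alone it was 87 of 129.

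With Z18trunc, 53 of 130 L1 subfamilies had a lower ratio than with Clover and 1 a higher one, where 8.78% and 4.03% of all subfamilies tested did. The median log2 change was −0.57 over the L1 subfamilies and −0.01 over all. The L1MA group led, with 9 of 12 lower and a median of −0.93, and L1PA7 to L1PA17 had 5 of 12. The 1 that rose, named after its value was seen, was L1MEg1 at 0.99 ± 0.24 (log2, SE, edgeR adjusted p = 0.0223), which rests on 0.702 to 1.32 antisense CPM in the Clover libraries. This count moved with the libraries: it was 88 without Z18trunc replicate 3 and 24 to 35 without any other library, namely 34, 24 and 33 without Clover replicates 1, 2 and 3, and 35 and 28 without Z18trunc replicates 1 and 2. The rise of L1MEg1 was lost without Clover replicate 1, 2 or 3 or Z18trunc replicate 2. In introns alone 83 of 129 were lower and 0 higher.

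With Z18truncZnFmut, 0 of 131 L1 subfamilies had a changed ratio against Clover in edgeR, with 1 higher and 7 lower at an unadjusted p under 0.05, where 0.102% of all subfamilies were higher and 0% lower. DESeq2 was not run on the ratio. Without Z18truncZnFmut replicate 3, 42 were lower, and within introns 1 was (L1MA1, −1.48 on the log2 scale). Thus, the 0 rests on that library and does not show that the ratio was unaltered.

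**Figure D3:**
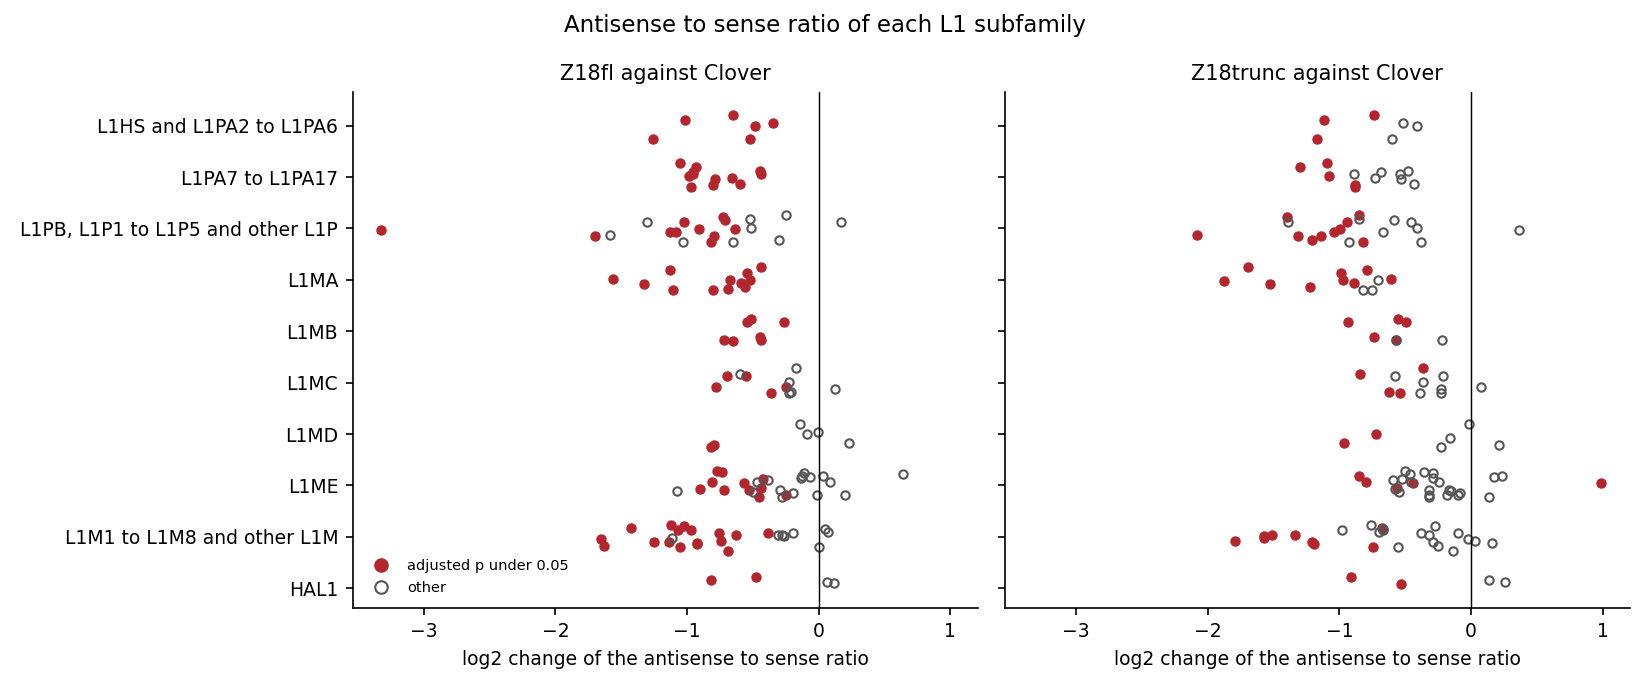
Log2 change of the antisense to sense ratio of L1 subfamilies (1 point each) by subfamily group, for Z18fl and Z18trunc against Clover, with called subfamilies (edgeR adjusted p under 0.05) marked. Most points lie below 0, with medians of −0.59 for L1HS to L1PA6 and −0.68 for L1MA in Z18fl.

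Antisense reads of single subfamilies were next compared on their own, with TMM scaling over the element table. In Z18fl, 7 of 129 antisense L1 subfamilies rose against Clover and 21 fell, where 16.2% and 15.6% of all subfamilies in either orientation did. Those that rose were HAL1ME, L1MD, L1MD3, L1ME3B, L1ME3F, L1ME3G and L1PA17. Those that fell included L1PA2, L1PA3, L1PA4, L1PA6, L1PA7, L1MA1, L1P3 and L1M2a. These directions hold relative to other elements: scaled to aligned fragments instead, the median of all subfamilies shifted by 0.44 on the log2 scale and 87 antisense L1 subfamilies were higher and 3 lower. In Z18trunc, 9 of 130 rose and 3 fell (L1M2a, L1MB4 and L1PA3), where 9.02% and 7.72% of all did. With scaling to aligned fragments 95 were higher and 0 lower, at a median shift of 0.49. Without Clover replicate 3 the 7 that rose in Z18fl were 3. The 9 in Z18trunc were 2 without Clover replicate 2, 0 without Clover replicate 3 and 5 without Z18trunc replicate 3. The 3 that fell in Z18trunc were 1 without Clover replicate 1, Clover replicate 2 or Z18trunc replicate 2, and 12 without Z18trunc replicate 3. In Z18truncZnFmut, 0 of 130 rose and 0 fell in edgeR and in DESeq2, with 11 and 2 at an unadjusted p under 0.05 in edgeR, where 0.108% and 0% of all did. Without Z18truncZnFmut replicate 3, 3 fell: L1M2a, L1MC4 and L1MEd.

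L1PA3 carried 4.24% of all antisense L1 counts, the most of any subfamily. It held 209, 197 and 179 CPM in Clover, 179, 178 and 186 in Z18fl, 194, 205 and 269 with Z18trunc, and 187, 244 and 750 with Z18truncZnFmut. Clover and Z18fl overlapped on this scale, and relative to other elements L1PA3 fell by 0.54 ± 0.06 (log2, SE) in Z18fl (edgeR adjusted p = 2.25e-07). In Z18trunc it fell by 0.29 on that scale (edgeR adjusted p = 0.0305), a call that was lost without any 1 of Clover replicates 1, 2 and 3 or Z18trunc replicates 1 and 2, and that turned to 0.19 with aligned fragments. A single copy in an intron of IARS1 held 22.1% of the L1PA3 counts in Clover and 13.3% in Z18fl. The other copies had 151.8 ± 13.8 CPM in Clover and 156.6 ± 5.48 in Z18fl (SD, n = 3). Their change relative to other elements was not tested. L1HS held 21.4, 18.7 and 16.3 antisense CPM in Clover, 20.9, 21.0 and 24.0 in Z18fl, 22.4, 26.0 and 36.4 with Z18trunc, and 21.2, 25.7 and 90.04 with Z18truncZnFmut. Antisense reads were 12.6%, 12.1% and 10.4% of L1HS counts in Clover and 8.67%, 9.37% and 8.05% in Z18fl. Its antisense reads alone changed by −0.20 in Z18fl (log2, edgeR adjusted p = 0.0719).

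In some of these subfamilies 1 element held a large part of the counts. In L1M2a, antisense reads went from 53.3, 46.5 and 47.7 CPM in Clover to 30.3, 28.4 and 32.6 in Z18fl and 41.7, 39.1 and 40.2 in Z18trunc, and fell by 1.12 and 0.74 on the log2 scale. A single copy on chromosome 19 held 83.1% of these counts in Clover and 51.2% in Z18fl. The other copies of L1M2a went the opposite way, from 8.33 ± 0.84 CPM in Clover to 14.9 ± 0.30 in Z18fl (SD, n = 3), and within introns the subfamily rose by 0.91 in Z18fl. In HAL1ME, antisense reads went from 13.7, 14.2 and 11.01 CPM in Clover to 24.9, 24.0 and 25.3 in Z18fl, a rise of 0.51 ± 0.09 on the log2 scale (SE, edgeR adjusted p = 1.14e-04). An exonic copy in NEAT1, the noncoding scaffold of paraspeckles, held 39.2% of them in Z18fl, the other copies had 10.5 ± 1.59 CPM in Clover and 15.1 ± 0.33 in Z18fl (SD, n = 3), and within introns the change was 0.02 (edgeR adjusted p = 0.925). In L1P3, antisense reads were 28.5, 23.2 and 26.2 CPM in Clover and 21.3, 21.8 and 21.6 in Z18fl, and fell by 0.70 on the log2 scale (edgeR adjusted p = 2.59e-07). A copy between genes at chrX:76178830-76183734 held 41.7% of them in Clover, and the other copies had 15.2 ± 1.76 CPM in Clover and 16.7 ± 0.33 in Z18fl (SD, n = 3).

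Single elements were tested next, over all elements of the 6 classes. Few members had the counts for this: 748 of the 352019 (0.212%) were tested in Z18fl against Clover, 774 (0.220%) in Z18trunc and 657 (0.187%) in Z18truncZnFmut. In Z18fl, 115 antisense L1 loci rose and 185 fell, where 25.9% of all loci tested rose and 21.5% fell. In Z18trunc, 54 rose and 95 fell, where 18.7% and 8.84% did. In Z18truncZnFmut, 14 rose and 18 fell, where 8.58% and 2.7% did. By comparison, 2026 of 3660 sense L1 loci rose in Z18fl and 232 fell, so the sense and antisense calls leaned opposite ways. With aligned fragments in place of TMM the antisense counts in Z18fl were 162 higher and 122 lower, and those in Z18trunc 92 and 51, so that the lean toward lower calls depends on the scaling. With no filter on low counts they were 143 higher and 54 lower in Z18fl, so that the lean depends on the filter as well. The 185 were 114 without Z18fl replicate 1 and 111 without replicate 3. In Z18trunc the 95 were 48 and 54 without replicates 1 and 2, and the 54 were 34 without replicate 3. In Z18truncZnFmut the 14 were 7, 8 and 7 without Clover replicate 3 and Z18truncZnFmut replicates 2 and 3, and the 18 were 11, 10 and 8 without Clover replicate 2 and Z18truncZnFmut replicates 1 and 3.

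Among the loci tested, the orientations parted most in introns. Of the antisense L1 loci tested in introns in Z18fl, 71 of 421 rose and 87 fell, at a median log2 change of −0.08, while 1412 of 2072 sense loci rose and 66 fell, at a median of 1.66. In exons 26 of 201 antisense loci rose and 67 fell, and between genes 17 of 110 rose and 26 fell. Of the sense loci, 90 of 364 in exons rose and 73 fell, and 397 of 813 between genes rose and 52 fell. Over all loci of any context tested, 25.9% rose and 21.5% fell. In the elements tested in both orientations, the antisense change was below the sense change in 29 of 46 in Z18fl, 34 of 46 in Z18trunc and 31 of 35 in Z18truncZnFmut. Since the constructs share the Clover libraries, their changes from Clover are not independent. The filter on low counts kept a locus with enough counts in 1 group, so a locus could enter through the group where it was high. The numbers of loci that rose and the medians thus depend on that filter. With no filter, 2896 of 129458 sense L1 loci rose in Z18fl and 52 fell, and 143 of 114452 antisense loci rose and 54 fell.

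Of the 115 antisense L1 loci that rose in Z18fl, 2 passed the rule for named loci on overlap, counts and score, and 0 of the 54 in Z18trunc did. Of these 2, the locus that rose more in Z18fl was an L1MB8 copy at chr5:179821968-179822360 in an intron of SQSTM1, the gene of the autophagy receptor p62. It had 60, 60 and 52 counts in Clover, 198, 217 and 218 in Z18fl, 172, 215 and 230 with Z18trunc, and 146, 114 and 121 with Z18truncZnFmut. All libraries with a Z18 construct were above all Clover libraries. Its mean was 3.35 ± 0.35 CPM in Clover, 8.83 ± 0.54 in Z18fl, 8.61 ± 1.26 with Z18trunc and 5.46 ± 0.53 with Z18truncZnFmut (SD, n = 3). On the log2 scale it rose by 1.17 ± 0.16 in Z18fl and 1.17 ± 0.18 in Z18trunc (SE, edgeR adjusted p = 2.47e-05 and 6.01e-05), and the change in Z18truncZnFmut was 0.60 (edgeR adjusted p = 0.0538). A second locus, an L1ME3F copy at chr11:65433871-65434194 in an exon of NEAT1, had 28, 30 and 17 counts in Clover and 85, 80 and 64 in Z18fl. It rose by 0.91 ± 0.27 in Z18fl (log2, SE, edgeR adjusted p = 0.00995) and by 0.92 in Z18trunc (edgeR adjusted p = 0.0117), but both calls were lost without Clover replicate 3.

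The most abundant antisense L1 locus was a nearly full-length L1PA3 copy of 6020 bases at chr9:92214409-92220428, in an intron of IARS1, which encodes isoleucyl-tRNA synthetase. It held 45.4, 41.3 and 42.5 CPM in Clover, 24.6, 24.6 and 23.2 in Z18fl, 31.4, 34.8 and 26.7 with Z18trunc, and 36.7, 41.0 and 30.3 with Z18truncZnFmut. Every library with a Z18 construct was below every Clover library. It fell by 1.06 ± 0.10 (log2) in Z18fl and 0.68 ± 0.10 in Z18trunc (SE, edgeR adjusted p = 5.05e-07 and 4.25e-05), and the change in Z18truncZnFmut was −0.36 (edgeR adjusted p = 0.128). This copy is among the youngest, at a milliDiv of 24, and its mean SQuIRE score was 65.9 in Clover, where the score is the percent of the reads aligning there that were assigned to the element.

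The L1M2a copy at chr19:57301227-57303573, between genes, held 43.997, 38.8 and 39.7 CPM in Clover, 15.6, 13.1 and 17.8 in Z18fl, 29.7, 26.6 and 25.4 with Z18trunc, and 40.3, 25.7 and 26.4 with Z18truncZnFmut. The groups Clover, Z18trunc and Z18fl did not overlap. It fell by 1.62 ± 0.11 (log2, SE) in Z18fl (edgeR adjusted p = 2.06e-08) and by 0.79 in Z18trunc (edgeR adjusted p = 8.49e-06). In Z18truncZnFmut it fell by 0.52 (edgeR adjusted p = 0.0231), a call that was lost without Clover replicate 1 or Z18truncZnFmut replicate 2 or 3. Its level in Z18trunc was above that in Z18fl by 0.76 ± 0.12 (log2, SE, edgeR adjusted p = 0.0015).

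An L1ME2 copy at chr16:541593-541820 in an intron of the calpain gene CAPN15 fell most by the rule in both Z18fl and Z18trunc. It held 7.49, 8.07 and 6.45 CPM in Clover, 3.87, 3.79 and 2.22 in Z18fl, 5.17, 4.08 and 4.82 with Z18trunc, and 5.83, 5.68 and 6.03 with Z18truncZnFmut. The fall was 1.38 ± 0.21 in Z18fl (log2, SE, edgeR adjusted p = 5.19e-05) and the change in Z18trunc was −0.84 ± 0.17 (edgeR adjusted p = 6.63e-04). An L1MB7 copy at chrX:153786503-153786754 in an intron of IDH3G, which encodes a subunit of mitochondrial isocitrate dehydrogenase, held 23.3, 25.0 and 23.7 CPM in Clover and 14.6, 16.3 and 13.8 in Z18fl. It fell by 0.91 ± 0.12 there (log2, SE, edgeR adjusted p = 1.41e-05). In Z18trunc, with 21.1, 20.9 and 21.1 CPM, it fell by 0.39 (edgeR adjusted p = 0.0114), and that call was lost without Z18trunc replicate 1 or 2. In Z18truncZnFmut, with 19.2, 19.9 and 15.9 CPM, it fell by 0.49 (log2, edgeR adjusted p = 0.0337), a call that was lost without Clover replicate 2 or 3 or Z18truncZnFmut replicate 1 or 3. An L1MEd copy at chr19:6379883-6380140 in an exon of GTF2F1, a subunit of the transcription factor TFIIF, held 21.8, 20.8 and 22.9 CPM in Clover, 19.0, 21.3 and 20.7 in Z18fl and 17.4, 17.7 and 16.8 in Z18trunc. It fell by 0.54 in Z18trunc (log2, edgeR adjusted p = 9.96e-04), while its call in Z18fl (−0.33, edgeR adjusted p = 0.0209) was lost without Clover replicate 3 or any 1 Z18fl library.

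Fragments of L1MB7 lie in an exon of OAS3, an interferon-induced oligoadenylate synthetase, where a gene is annotated on the opposite strand as well. The piece at chr12:112972918-112973018 held 10.6, 11.3 and 12.4 CPM in Clover, 5.53, 5.84 and 6.35 in Z18fl, 10.4, 10.7 and 10.98 with Z18trunc, and 9.43, 9.30 and 5.29 with Z18truncZnFmut. It was low in Z18fl and in Z18truncZnFmut replicate 3, and close to Clover in Z18trunc. It fell by 1.18 ± 0.14 (log2, SE) in Z18fl (edgeR adjusted p = 4.67e-06), the change in Z18trunc was −0.30 (edgeR adjusted p = 0.101), and the difference between Z18trunc and Z18fl was 0.80 ± 0.14 (edgeR adjusted p = 0.00327). In Z18truncZnFmut it fell by 0.63 (log2, edgeR adjusted p = 0.0344), a call that was lost without Clover replicate 2 or 3 or Z18truncZnFmut replicate 1 or 3. The neighbouring piece at chr12:112973071-112973549 held 5.50, 4.33 and 4.19 CPM in Clover, 2.81, 2.62 and 2.34 in Z18fl, 4.67, 3.48 and 3.38 with Z18trunc, and 2.87, 3.21 and 2.27 with Z18truncZnFmut. In Z18fl it fell by 1.078 ± 0.190 (log2, SE, edgeR adjusted p = 2.31e-04). In Z18truncZnFmut it fell by 0.86 ± 0.22 (log2, SE, edgeR adjusted p = 0.0103), a call that was lost without Clover replicate 1 or Z18truncZnFmut replicate 1 or 3.

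**Figure D4:**
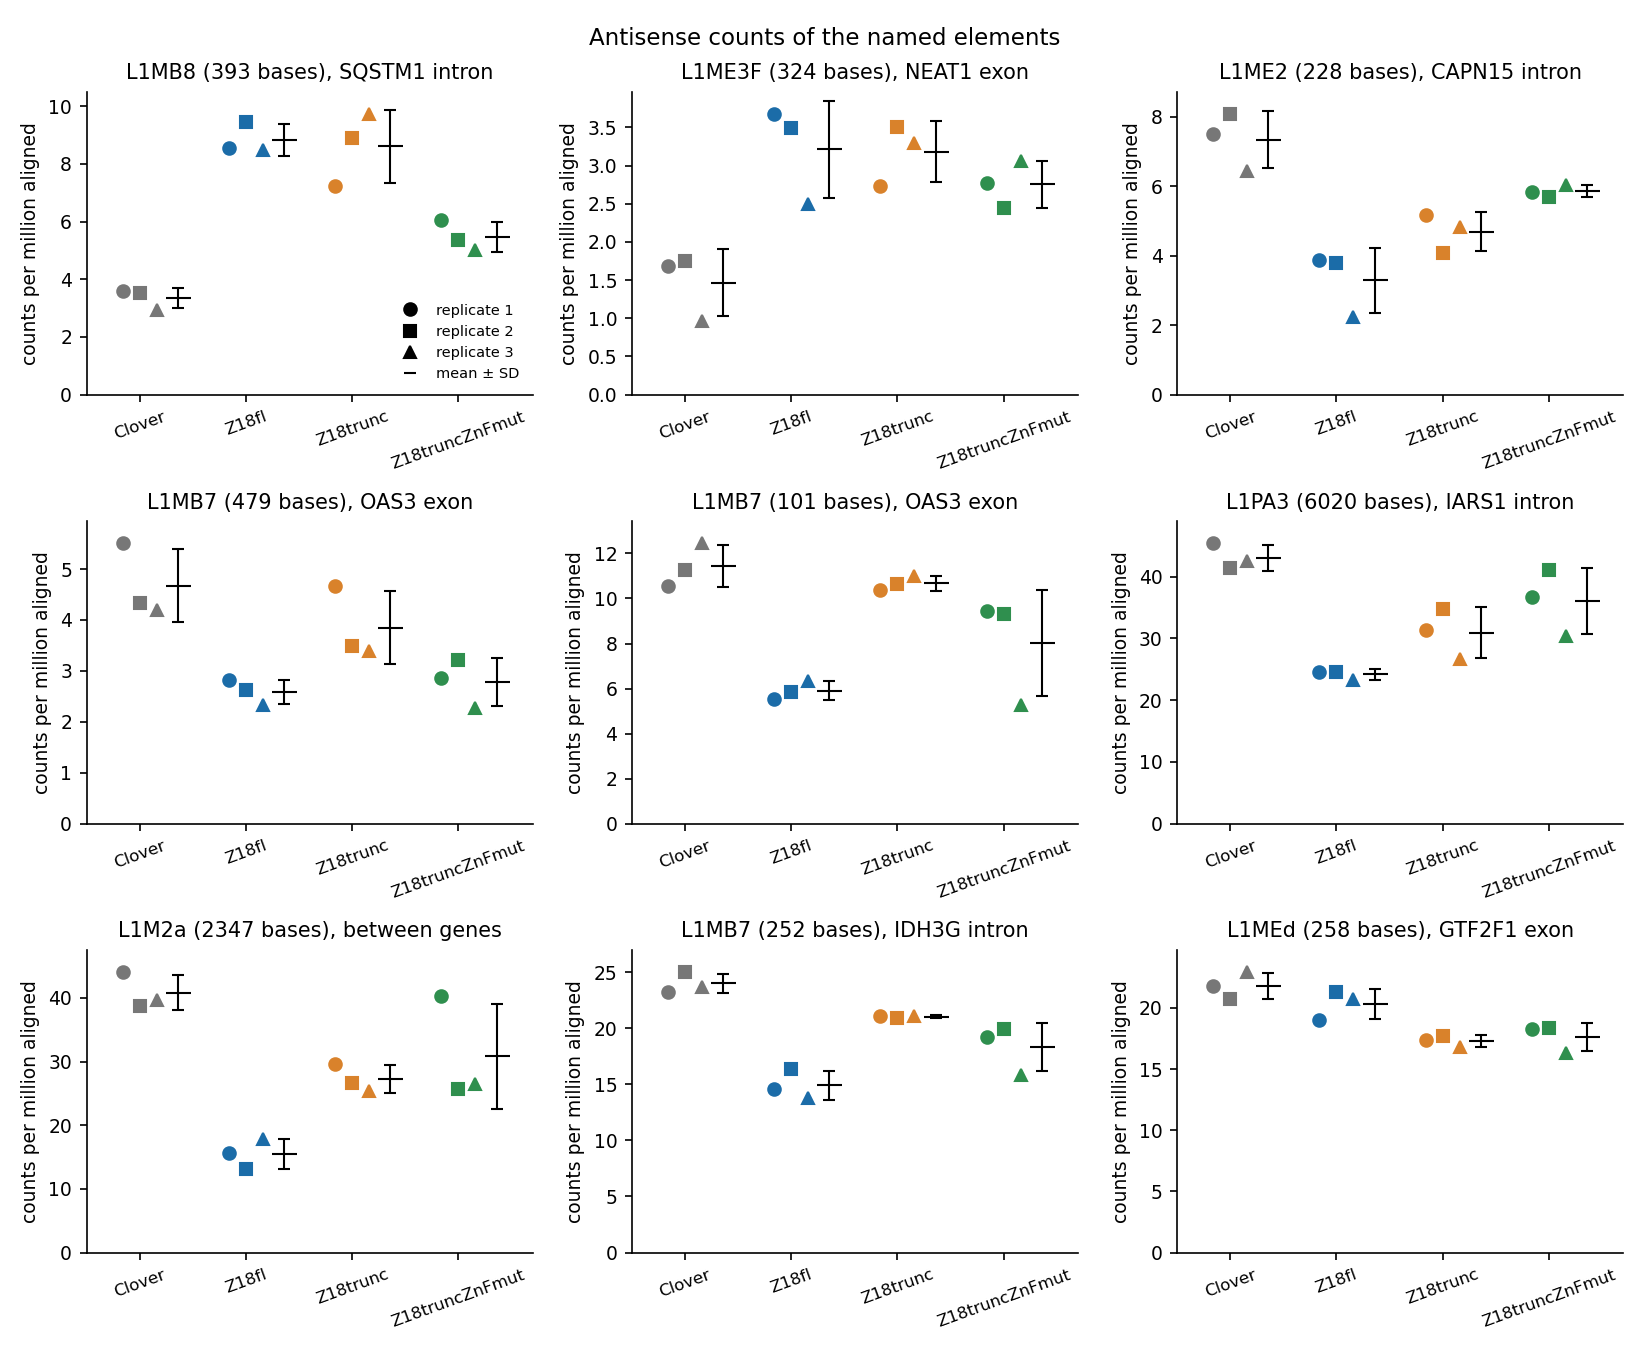
CPM of named antisense L1 loci in each library (points), with the mean and SD of each construct (bars), 1 panel per locus. The L1MB8 copy in SQSTM1 lies higher in all Z18 libraries than in Clover, and the L1PA3 copy in IARS1, at 41.3 to 45.4 in Clover, lies lower in all of them.

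Antisense reads lying in introns on the strand of the gene were also summed by host gene, over 17166 genes. IARS1 came first, with 97.4% of its counts on the L1PA3 copy, and IDH3G, with 1 element, was also among the leading 5. CYFIP2, a component of the WAVE actin regulatory complex, held 39.0, 40.9 and 35.6 CPM in Clover over 25 elements, 19.9, 20.4 and 18.2 in Z18fl, 28.8, 26.4 and 27.0 with Z18trunc, and 29.9, 25.9 and 21.2 with Z18truncZnFmut. An L1MB3 copy held 52.0% of these counts. A long noncoding RNA known by its identifier, ENSG00000287474, went the other way, with 17.8, 18.6 and 14.6 CPM over 95 elements in Clover and 25.1, 25.1 and 27.8 in Z18fl. These sums per gene were not tested, and more binding to the bait and more host RNA cannot be told apart in these counts.

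Nearly full-length copies of the youngest subfamilies (L1HS and L1PA2 to L1PA6, at least 5500 bases), which can carry the L1 antisense promoter, made up 6043 of the members. Their antisense reads were 376, 339 and 305 CPM in Clover, 335, 343 and 348 in Z18fl, 353, 395 and 509 with Z18trunc, and 350, 431 and 1358 with Z18truncZnFmut. Their antisense share was 16.3%, 16.8% and 14.2% in Clover and 10.96%, 12.04% and 9.05% in Z18fl. The files give a position only as the extent of the covered region, so position was read where that extent was at most 500 bases, which held 14.0% to 19.4% of these antisense counts in Clover and 7.68% to 10.5% in Z18fl. Of those counts, 21.6%, 29.9% and 37.1% in Clover and 38.2%, 32.2% and 43.6% in Z18fl lay in the first 500 bases of the element. With Z18trunc it was 34.0%, 32.1% and 13.9%, and with Z18truncZnFmut 37.6%, 20.2% and 5.45%, so that the last of these libraries lay in the range of the sense reads. That 5.45% rests on 19 counts, from the 1.06% of the antisense counts of this library with so short an extent. Sense counts in the same window were 2.13% to 7.50% of theirs in the 12 libraries. Those percentages rest on 4 to 42.3 counts per library, since 0.111% to 2.49% of the sense counts had so short an extent. Antisense reads in that window came to 13.4, 19.7 and 15.9 CPM in Clover, 9.83, 11.6 and 12.3 in Z18fl, 11.3, 11.7 and 6.20 with Z18trunc, and 16.7, 10.4 and 0.785 with Z18truncZnFmut, spread over 1129 elements with 2.10% on the leading one. The Clover libraries were above the Z18fl libraries in this window, but the share of reads that could be placed also differed between them, so these values were described and not tested.

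**Figure D5:**
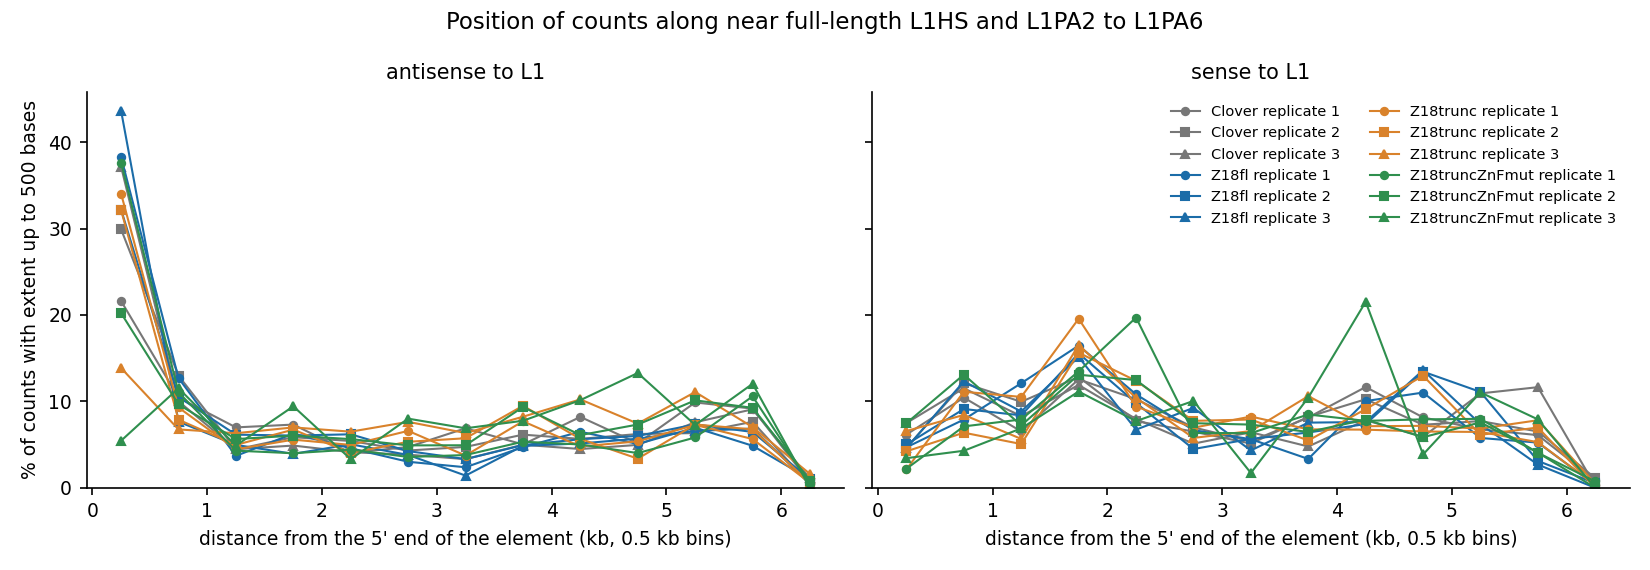
Position of antisense and sense reads along nearly full-length L1HS to L1PA6 elements, as percent of the counts with a covered extent of at most 500 bases, in windows from the 5′ end, by library. In the first 500 bases antisense reads held 21.6% to 43.6% in Clover and Z18fl but 13.9% in Z18trunc replicate 3 and 5.45% in Z18truncZnFmut replicate 3, where sense reads held 2.13% to 7.50% in the 12 libraries. The 5.45% rests on 19 counts, and the sense values on 4 to 42.3 counts per library.

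Z18trunc was compared directly with Z18fl to ask what the lost C-terminal end does to these reads. The antisense share of L1 counts differed by −1.28 percentage points (exact permutation test, p = 0.8, n = 3 against 3), and the share in introns was 5.35 points lower in Z18trunc with that between genes 4.50 points higher, both with an exact permutation p of 0.1. These differences were −1.80 and 1.16 points without Z18trunc replicate 3 (exact permutation test, p = 0.2, n = 2 against 3). The antisense to sense ratio changed in 0 of 131 L1 subfamilies in edgeR, with 2 higher and 3 lower at an unadjusted p under 0.05, where 0.811% of all were higher and 0.608% lower. DESeq2 was not run on this ratio, and 33 were lower without Z18trunc replicate 3. Among antisense subfamilies, 1 of 130 rose and 0 fell, where 0.21% and 1.21% of all did, with 25 higher and 2 lower at an unadjusted p under 0.05 in edgeR and 1 and 0 in DESeq2. The 1 was L1P3, with 21.3, 21.8 and 21.6 CPM in Z18fl and 28.6, 30.9 and 34.6 in Z18trunc, a rise of 0.49 ± 0.07 (log2, SE, edgeR adjusted p = 0.00667). The call was lost without Z18fl replicate 1 or 2, and without Z18trunc replicate 3 there were 4 that rose, without replicate 1 there were 3. Of 1078 antisense L1 loci tested, 0.306% of the members, 20 rose and 35 fell, where 2.12% and 2.57% of all loci did. Without Z18fl replicate 1 these were 10 and 22, without Z18fl replicate 2 the 35 were 10, and without Z18trunc replicates 1 and 2 they were 10 and 11, and 11 and 21.

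Z18truncZnFmut was compared with Z18trunc to ask what the zinc finger mutation does. The antisense share was 7.11 percentage points higher in Z18truncZnFmut (exact permutation test, p = 0.4, n = 3 against 3), and the groups overlapped in all 9 single values. The ratio changed in 0 of 131 L1 subfamilies, where 0% of all subfamilies were higher and 0% lower in edgeR, with 5 higher and 0 lower at an unadjusted p under 0.05, and DESeq2 was not run on it. The median log2 change of the ratio was 0.48 over the L1 subfamilies and 0.04 over all. Among antisense subfamilies 0 of 131 rose and 0 fell, where 0% and 0% of all did, in edgeR and DESeq2, with 1 and 0 at an unadjusted p under 0.05 in edgeR. Of 960 loci tested, 0.273% of the members, 14 rose and 0 fell in edgeR, where 0.213% and 0.197% of all loci did. At an unadjusted p under 0.05, 70 rose and 32 fell, and DESeq2 called 2 and 0. In the fit with the replicate number as a block 11 rose. Without Z18trunc replicate 3 and Z18truncZnFmut replicate 3, 0 did, and the 14 were 5 without Z18trunc replicate 1, 5 without replicate 2, 2 without Z18truncZnFmut replicate 3 and 22 without its replicate 1.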

How the data were processed

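The libraries were trimmed with cutadapt 4.6 and quantified by the authors with SQuIRE, which assigns reads to RepeatMasker elements of hg38 on each strand; the aligner and SQuIRE versions for this step are not given in the sources used here. Each deposited file holds, for 1 library, an expected count per element and strand (unique reads plus an estimated share of multimapping reads), the count of uniquely mapping reads, the count of aligned fragments, and a percent, the SQuIRE score, of the reads aligning to an element that were assigned to it. Replicates were not pooled by the authors.

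From these files, elements of the LTR, LINE, SINE, DNA, RC and Retroposon classes were split by read orientation. Members and lists were chosen with earlier results of these data known. Expected counts were rounded and tested with edgeR 4.0.16 in R 4.3.3 (quasi-likelihood, TMM, filterByExpr, adjusted p under 0.05 by Benjamini-Hochberg over the whole table), per element and per subfamily, and the ratio by an interaction with a term per library. Single values used two-sided exact permutation tests. DESeq2 1.42.0, other scalings, filters, unique reads, antisense entries alone, a replicate block and left-out libraries were alternatives; the introns alone and the joint omission of both replicates 3 were added after seeing the data. Gene context came from GENCODE 44 on the read strand. The sequence of 1 named element is not reported here.

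Between Z18truncZnFmut and Z18trunc the libraries with the same replicate number deviated together (correlations of 0.52, 0.27 and 0.70 over subfamilies), so the blocked count is given there. Named loci were, per comparison, called loci without overlap between the groups, whose higher group averaged 50 counts or more and a score of 90 or more, ranked by fold change (2 that rose and 1 that fell against Clover, 1 each otherwise), plus the 4 most abundant. Named subfamilies were the 3 that rose and 2 that fell most among those called with at least 200 mean counts, the 5 most abundant, and L1HS. Host genes were the 5 with the most antisense counts in introns. Tested on simulated data, the locus test for Z18fl against Clover recovered 13% of 2-fold and 69% of 4-fold changes among 16254 elements. The subfamily test recovered 93% and 98% among 1819, and the ratio test 80% and 99% among 885, with no wrong direction. For Z18truncZnFmut the ratio test recovered 33% of 2-fold changes against Clover and 29% against Z18trunc. False calls made up 12.6% of the locus calls in Z18trunc against Z18fl, 10.8% in Z18trunc against Clover, and at most 7.53% in any other test. Each simulation changed 200 features, as many up as down, with no overall shift between groups. These rates thus do not cover the dependence on scaling seen in the data.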

Additional observations from a re-analysis of the deposited data

Results flagged for a closer look

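Only the named loci and subfamilies were looked at here, while 55 antisense L1 loci were called in Z18trunc against Z18fl. In 3 of the named cases the change from Clover differed between Z18trunc and Z18fl by a direct test of those constructs in edgeR. The L1MB7 fragment in OAS3 at chr12:112972918-112973018 differed by 0.799 on the log2 scale (SE 0.142, adjusted p = 0.00327), with a mean of 10.7 CPM in Z18trunc and 5.90 in Z18fl against 11.4 in Clover. The L1M2a copy between genes at chr19:57301227-57303573 differed by 0.758 (SE 0.122, edgeR adjusted p = 0.0015), with means of 27.2 and 15.5 CPM against 40.8 in Clover. Antisense reads of the subfamily L1P3 differed by 0.489 (SE 0.0745, edgeR adjusted p = 0.00667), and all 3 Z18trunc libraries were above all 3 Z18fl libraries in each case. The naming rules used calls and, for loci, no overlap between the groups compared, so the calls and this separation are not independent support. The L1P3 difference was lost without Z18fl replicate 1 or 2, with scaling to aligned fragments and within introns. Its cause was not tested.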

How the results depend on the processing

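Of 399 alternatives of the counts and leading single values, 304 kept the result and 95 moved it; of 500 alternatives of 51 named results, 428 left the call as it was, 66 lost it and 6 reversed it, and the cause was not tested. The reversals were L1M2a within introns (0.91 in Z18fl and 0.50 in Z18trunc) and, with scaling to aligned fragments, L1MB4 in Z18trunc (0.13), L1PA3 in Z18trunc (0.19), L1PA7 in Z18fl (0.12) and L1MC4 in Z18fl (0.20). Depth limits the locus tests, since under 1% of the members could be tested in any comparison, so a locus that was not called was not shown to be unaltered.

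With DESeq2, the loci lower in Z18fl were 118 and the subfamilies higher 4, the loci lower in Z18trunc 63, the loci higher in Z18truncZnFmut 9, those higher and lower in Z18trunc against Z18fl 11 and 22, and those higher in Z18truncZnFmut against Z18trunc 2. With aligned fragments, the loci lower in Z18fl were 122, subfamilies higher 87 and lower 3; in Z18trunc loci 92 higher and 51 lower, subfamilies 95 higher and 0 lower; in Z18truncZnFmut loci 25 higher and 7 lower; and in Z18trunc against Z18fl subfamilies 0 higher. With no filter, the loci lower in Z18fl were 54 and in Z18trunc 24, those in Z18truncZnFmut 8 higher and 1 lower, in Z18trunc against Z18fl 10 and 21, and lower in Z18truncZnFmut against Z18trunc 2. From unique reads alone, the loci higher in Z18fl were 76, in Z18trunc 35 and in Z18truncZnFmut against Z18trunc 8, the subfamilies higher in Z18trunc against Z18fl 2, and the ratios higher in Z18trunc 0. With antisense entries alone, the loci lower in Z18fl were 114, in Z18trunc 38, and in Z18truncZnFmut 7 higher and 0 lower. Within introns, the subfamilies higher in Z18fl were 3, those in Z18trunc 5 higher and 13 lower, the ratios lower were 83 (0 higher) in Z18trunc, 1 in Z18truncZnFmut and 2 in Z18trunc against Z18fl, and the share in Z18fl against Clover differed by −12.1 points.

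With the replicate block, the subfamilies in Z18trunc were 4 higher and 1 lower, the loci in Z18trunc against Z18fl 8 and 22, and the loci higher in Z18truncZnFmut against Z18trunc 11. The block moved no other count past 1.5 times. In the other comparisons these correlations ran from −0.288 to 0.0484. In Z18fl against Clover they were 0.0271, 0.0245 and 0.0484, though all 3 Z18fl libraries correlated best with the Clover library of their own number. Whether a shared number marks a link between those libraries was not tested. No blocked fit of the ratio was added because its design already holds a term per library.

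Leaving out 1 library at a time gave, in Z18fl, 87 to 146 loci higher and 111 to 209 lower, 3 to 8 subfamilies higher and 14 to 24 lower, and 70 to 87 ratios lower. In Z18trunc it gave 34 to 71 and 48 to 101 loci, 0 to 12 and 1 to 12 subfamilies, and 0 to 1 and 24 to 88 ratios. In Z18truncZnFmut it gave 7 to 16 and 8 to 17 loci, 0 to 0 and 0 to 3 subfamilies and 0 to 42 ratios lower. In Z18trunc against Z18fl it gave 10 to 20 and 10 to 37 loci, 0 to 4 and 0 to 1 subfamilies and 0 to 33 ratios lower, and in Z18truncZnFmut against Z18trunc 2 to 22 and 0 to 1 loci, with 0 for both replicates 3 left out. The difference in antisense CPM ranged from 728 to 1138 in Z18fl, 823 to 2044 in Z18trunc, 770 to 8720 in Z18truncZnFmut, −96.3 to 1125 in Z18trunc against Z18fl and −791 to 7159 in Z18truncZnFmut against Z18trunc. That in the antisense share ranged from −9.62 to −7.45 points, −12.7 to −8.32, −8.42 to 1.26, −4.01 to 0.371 and 1.55 to 11.2 in the same order.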

Other observations

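Antisense L1 counts were spread thinly. The 10 elements with the most antisense counts held 6.20% to 7.17% of them in the Clover libraries, 3.42% to 3.58% in Z18fl, 2.62% to 4.33% in Z18trunc and 0.808% to 5.18% in Z18truncZnFmut, and the 100 leading elements held 17.7% to 20.7% in Clover and 12.9% to 13.4% in Z18fl. Of the antisense L1 counts, 64.7% to 78.2% came from uniquely mapping reads, and the Z18fl share was 6.76 percentage points above that of Clover (two-sided exact permutation test, p = 0.1, n = 3 against 3). The antisense L1MB4 subfamily, which fell by 0.34 on the log2 scale in Z18trunc (edgeR adjusted p = 0.0151), had 49.1% of its Clover counts on 1 copy in an intron of SMG1, a kinase of nonsense-mediated decay. That call was lost without Clover replicate 1 or 2 or Z18trunc replicate 2. Antisense L1M4a1 rose by 0.66 in Z18trunc (edgeR adjusted p = 0.0126), a call that was lost without Clover replicate 2 or 3.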
